A study of Mus musculus with 21 samples.

Results

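The genes described here are 10 surface proteins and receptors by which muscle satellite cells are recognised or sorted: Calcr, Chodl, Cd34, Vcam1, Itga7, Itgb1, Ncam1, Sdc3, Sdc4 and Cxcr4. They were chosen by name, each had 1 probeset with a single gene symbol, and they are 10 of the 19938 genes named on the array. All 10 lay above the brightness filter (log2 6.45) that left 13956 genes for testing. Signals are log2 values, so that a difference of 1 is a doubling.

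Satellite cells are the stem cells of skeletal muscle and lie between the fibre and its basal lamina, mostly out of the cell cycle. Their surface carries receptors that hold them quiescent, such as the calcitonin receptor, and proteins that anchor them to fibre and matrix, among them integrins, syndecans and cell adhesion molecules. Several of these proteins serve as handles for cell sorting, so their transcript levels bear on how cells in different states are recognised.

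Expression was measured on 21 Affymetrix arrays of cells from hindlimb muscle of mice aged 3 to 5 months, in 12 pools of 3 to 4 mice. All groups, controls included, carried Pax7CreER/+ and Rosa26REYFP/+. Tamoxifen was given at least 2 weeks before the sort, Cre was driven by Pax7, and YFP+ cells were lysed without culture. Quiescent satellite cells (QSC) came from noninjured mice. Contralateral satellite cells (CSC) came from the hindlimb opposite to a limb injured with barium chloride (BaCl2), 2.5 days after the injury unless 28 days is stated. The WT groups (Pax7CreER/+;Rosa26REYFP/+, mixed C57BL6) comprised 3 pools of QSC, 3 pools of CSC and 1 pool of CSC at 28 days. The knockout (KO) groups had 1 pool each: TSC1 KO QSC (TSC1flox/flox), Rptor KO QSC and Rptor KO CSC (Rptrflox/flox), and cMet KO QSC and cMet KO CSC (cMetflox/flox). The cMet KO mice were labelled C57BL6 mixed FVB, so that for them genotype and strain cannot be told apart. TSC1 restrains the kinase complex mTORC1, Rptor is a subunit mTORC1 requires, and cMet is the receptor of hepatocyte growth factor. The study asked how these genes shape the response of resting stem cells to an injury elsewhere in the body.

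The cells carried the defining transcripts of satellite cells in every pool: Pax7 lay between 10.3 and 12.1, Myf5 between 9.77 and 11.6 and Cdh15 between 10.8 and 11.6. The Tsc1 signal was 8.16 in the TSC1 KO pool against 8.34 to 8.69 in WT QSC. The Rptor signal was 9.19 in Rptor KO QSC and 8.85 in Rptor KO CSC, with 8.91 to 9.58 in WT QSC and 9.43 to 9.84 in WT CSC. The cMet KO pools read 10.25 (QSC) and 10.13 (CSC) for Met, with 9.93 to 10.11 in WT QSC and 10.63 to 10.94 in WT CSC. Where these probesets lie relative to the floxed exons is not given in the sources used here, so these signals do not check recombination, and the group names are those of the labels. Pairs of arrays from the same pool correlated at 0.973 or more over the 13956 genes tested. Groups with a single pool lack any replicate of their own, and their tests assume the spread seen among WT QSC and among WT CSC. Because cells were pooled in bulk, fewer cells of a kind and less RNA per cell cannot be told apart.

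The stretches just upstream of Calcr, Chodl and Cd34 are shown because these were the members that passed the test in WT after a distant injury. They are RefSeq sequences of GRCm38.p6, written 5′ to 3′ on the gene's strand and ending at the base before the gene's start: chr6:3764714-3764963 (minus strand) for Calcr, chr16:78930698-78930840 (plus strand) for Chodl and chr1:194938571-194938820 (plus strand) for Cd34. Capitals mark matches to the E-box CANNTG and to TGGGAA, the core letters bound by the Notch effector RBPJ, searched on both strands.

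Calcr: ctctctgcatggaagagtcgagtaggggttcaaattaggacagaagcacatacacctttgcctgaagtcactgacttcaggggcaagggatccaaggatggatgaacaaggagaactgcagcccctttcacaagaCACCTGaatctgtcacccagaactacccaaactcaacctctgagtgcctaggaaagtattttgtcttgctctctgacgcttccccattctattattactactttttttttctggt
Chodl: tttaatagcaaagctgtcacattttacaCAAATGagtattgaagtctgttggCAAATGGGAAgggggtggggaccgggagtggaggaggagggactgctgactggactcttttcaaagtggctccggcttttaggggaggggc
Cd34: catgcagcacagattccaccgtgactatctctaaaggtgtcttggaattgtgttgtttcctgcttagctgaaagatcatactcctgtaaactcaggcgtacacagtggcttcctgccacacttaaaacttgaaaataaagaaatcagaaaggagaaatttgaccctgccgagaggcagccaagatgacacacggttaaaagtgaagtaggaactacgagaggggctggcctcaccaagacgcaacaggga

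The Calcr window held 1 E-box (CACCTG) that starts 115 bases before the gene. The Chodl window held 2 E-boxes (CAAATG), and its single TGGGAA overlapped the second of these. The Cd34 window held neither motif, and none of the 3 held the GC box GGGCGG. Among 32851 mouse promoters, 66.2% of 250-base windows and 46.1% of 143-base windows held an E-box. For TGGGAA these shares were 21.6% and 12.5%, and for GGGCGG they were 32.7% and 28.2%. A match describes letters in a window and not a bound site.

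In WT cells 2.5 days after a distant injury, transcripts of 3 of the 10 surface genes fell and none rose. The 3 were Chodl, Calcr and Cd34, with 2.43-, 2.24- and 1.79-fold lower signals in CSC than in QSC. The test was limma's moderated comparison with Benjamini-Hochberg adjustment over all 13956 genes at a threshold of 0.05. By the same test 7.36% of all genes were lower and 10.6% were higher. The median difference was -0.32 over the 10 genes and -0.05 over all genes tested.

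Chodl encodes chondrolectin, a membrane protein of the C-type lectin family that is used as a marker of quiescent satellite cells. Its QSC pools read 12.03, 11.99 and 11.52, and its CSC pools read 10.45, 10.49 and 10.77. The lowest QSC pool thus lay above the highest CSC pool. The difference was -1.28 ± 0.17 (SE, limma adjusted p = 0.00175, 3 pools per group), and it passed under all 16 alternative settings.

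Calcr encodes the calcitonin receptor, a G protein-coupled receptor whose signalling keeps adult satellite cells quiescent. The QSC pools read 12.07, 11.90 and 11.14, and the CSC pools read 10.58, 10.41 and 10.63. The groups did not overlap, although the third QSC pool lay nearer to CSC than the other QSC pools did. The difference was -1.17 ± 0.23 (limma adjusted p = 0.00925). Of the receptor's accessory proteins, which set the ligand that it binds, Ramp2 fell by 0.77 ± 0.20 on the log2 scale (limma adjusted p = 0.0282). That call did not hold without WT CSC pool 1, 2 or 3 (adjusted p up to 0.102). Ramp1 (-0.15 ± 0.12) and Ramp3 (-0.28 ± 0.16) did not pass (limma adjusted p = 0.436 and 0.258). Collagen V is a ligand of the receptor on satellite cells, and none of its 3 chains passed. Col5a1 differed by -0.42 ± 0.15, Col5a2 by -0.07 ± 0.12 and Col5a3 by -0.52 ± 0.18 (limma adjusted p = 0.0874, 0.717 and 0.0731).

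Cd34 encodes a sialomucin found on satellite cells and also on endothelial and other progenitor cells. It read 12.09, 12 and 11.33 in QSC and 10.62, 11.06 and 11.22 in CSC. The groups were separated by a small gap between the third QSC pool and the third CSC pool. The difference was -0.84 ± 0.23 (limma adjusted p = 0.0353). This call was the least firm of the 3: it was lost without QSC pool 1 or 2 or without any 1 CSC pool (adjusted p up to 0.122), and with no filter on dim genes (0.0542).

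No adhesion molecule passed the test. Vcam1, the immunoglobulin-family protein that binds integrin α4β1 and is used to sort satellite cells, read 12.41, 12.53 and 12.45 in QSC and 11.84, 12.21 and 12.15 in CSC. The pools did not overlap, but the difference of -0.40 ± 0.14 did not pass (limma adjusted p = 0.0812). Itga7, the α chain of the laminin receptor that attaches the cell to the basal lamina, read 11.15, 10.53 and 11.12 in QSC and 11.20, 11.68 and 11.39 in CSC. It was the only member whose CSC pools all lay above the QSC pools, and the difference of 0.49 ± 0.20 did not pass (limma adjusted p = 0.128). Its partner Itgb1, the β1 chain shared by many integrins, read 11.23, 11.35 and 11.41 in QSC and 10.86, 11.35 and 11.31 in CSC. Here the groups overlapped, with a difference of -0.16 ± 0.16 (limma adjusted p = 0.550). Ncam1, the neural cell adhesion molecule, read 11.88, 11.29 and 11.15 in QSC and 11.27, 11.31 and 10.99 in CSC. These ranges also overlapped, and the difference was -0.25 ± 0.20 (limma adjusted p = 0.432).

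The syndecans are membrane proteoglycans whose heparan sulfate chains hold growth factors at the cell surface. Sdc4 read 12.82, 12.62 and 12.98 in QSC and 12.10, 12.51 and 12.54 in CSC, without overlap. Its difference of -0.42 ± 0.16 did not pass (limma adjusted p = 0.111). Sdc3 read 9.29, 8.27 and 8.95 in QSC and 9.24, 9.12 and 9.05 in CSC, and the wide spread of the QSC pools covered all the CSC pools (0.30 ± 0.23, limma adjusted p = 0.425). Cxcr4, the receptor of the chemokine Cxcl12 that directs migration, read 10.27, 10.15 and 10.03 in QSC and 10.25, 9.66 and 9.90 in CSC. The groups overlapped, with a difference of -0.21 ± 0.17 (limma adjusted p = 0.431). In all, 5 of the 10 genes had every CSC pool below every QSC pool and 1 had every CSC pool above, where 19.1% and 18.7% of all genes did so.

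**Figure D1:**
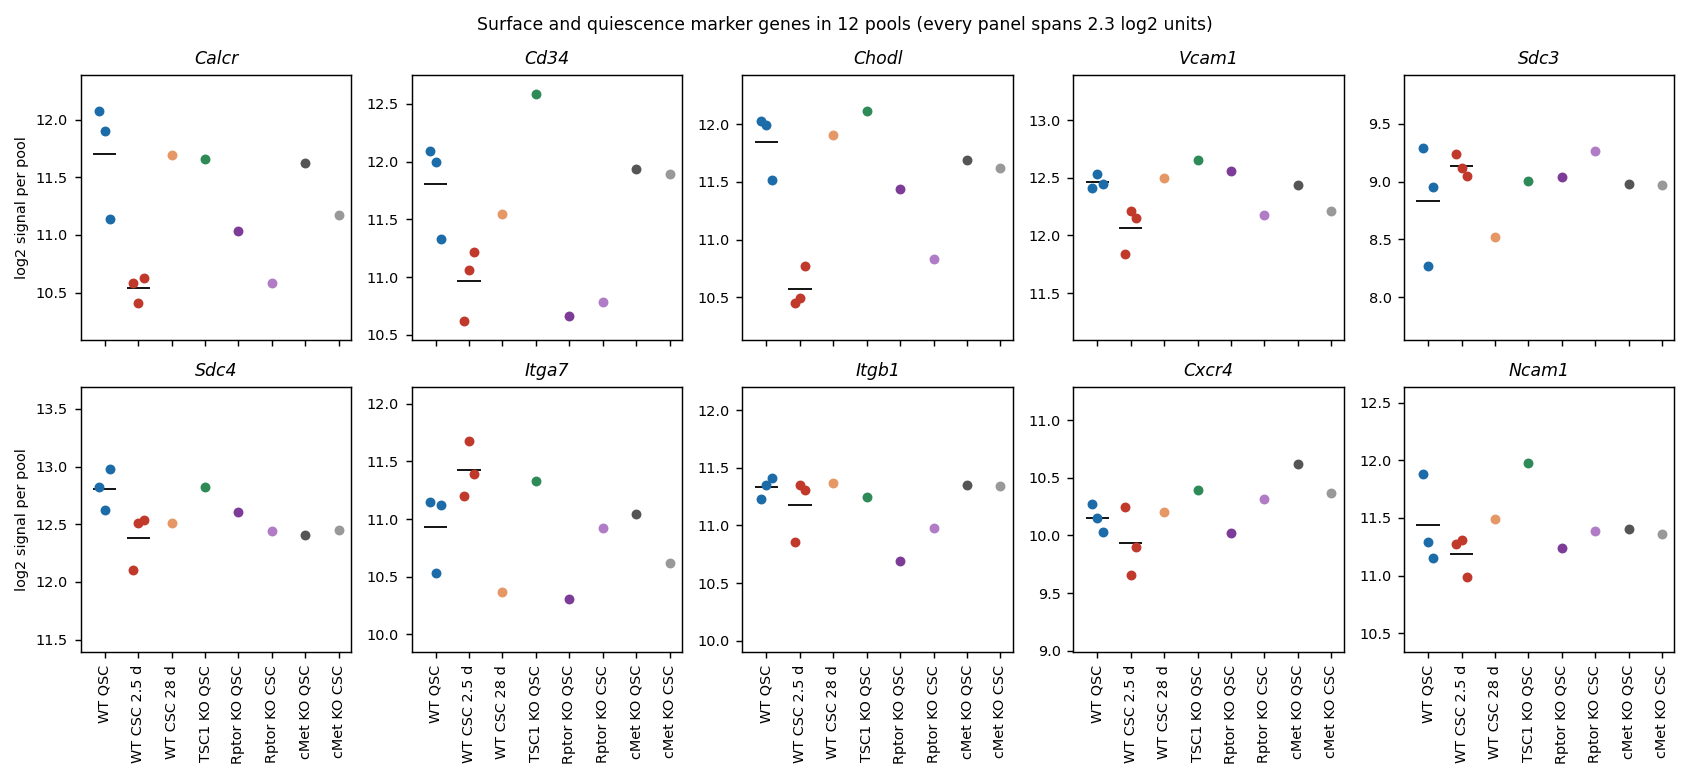
Signal (log2, y axis) of the 10 genes in each of the 12 pools by group, where points are pools (technical arrays averaged) and short lines are means of groups with 3 pools. Calcr, Chodl and Cd34 show the WT CSC pools below the WT QSC pools, and in the cMet KO both Chodl pools lie between 11.6 and 11.7.

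**Figure D2:**
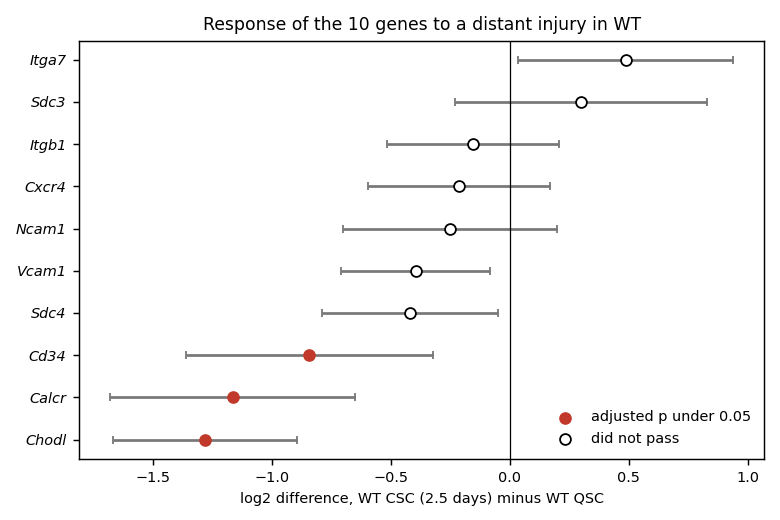
Difference between WT CSC at 2.5 days and WT QSC (log2, x axis) for each gene with its 95% interval from limma, 3 pools per group. Filled points passed the adjusted threshold: Chodl at -1.28, Calcr at -1.17 and Cd34 at -0.84.

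Counts of known partners and modifiers are read against all genes, of which 10.6% rose and 7.36% fell. Of 24 tested integrin chains and adhesion adaptors, 1 rose and 4 fell (4.17% and 16.7%; median -0.14). Itga3, which pairs with the β1 chain to bind laminin, rose by 1.61 ± 0.21 (limma adjusted p = 0.00143). Itga1, the α chain of a collagen receptor, fell by 1.23 ± 0.14 (limma adjusted p = 0.000838), and Itga8 fell by 1.27 ± 0.22 (limma adjusted p = 0.00508). Itga3, Itga1 and Itga8 passed without any 1 WT pool, whereas Itga9 and Itgb5, the other 2 that fell, passed in 1 of 6 such fits. The chain Itga4, part of the receptor for Vcam1, differed by -0.04 ± 0.17 (limma adjusted p = 0.885).

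Among 18 tested ligands, co-receptors and modifying enzymes, 1 rose and 4 fell (5.56% and 22.2%; median -0.45). The gene that rose was St8sia2, a sialyltransferase that adds polysialic acid to Ncam1. Its QSC pools read 7.53, 7.02 and 7.33, and its CSC pools read 9.34, 8.36 and 8.84. The difference was 1.55 ± 0.24 (limma adjusted p = 0.00347), beside an Ncam1 transcript that did not pass. The 4 that fell were Lama2 and Lama4, chains of laminin, Ramp2, and Ackr3, a second receptor for Cxcl12. Lama4 passed in 1 and the other 3 in 3 of the 6 fits that left out a WT pool. Cxcl12 itself differed by -0.64 ± 0.20 without passing (limma adjusted p = 0.0552).

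Of 25 tested heparan sulfate proteoglycans and enzymes, 2 rose and 2 fell (8% each, near the shares over all genes; median -0.07). Sdc1, a syndecan outside the marker set, read 8.92, 8.83 and 8.90 in QSC and 9.68, 9.35 and 9.63 in CSC. It rose by 0.67 ± 0.13 (limma adjusted p = 0.0105; 0.0567 without WT CSC pool 3). Gpc1, a glypican, rose by 1.14 ± 0.25 (limma adjusted p = 0.0146), a call lost without WT CSC pool 1 or 2 (adjusted p up to 0.0572). Gpc3 and Ext1 fell, and each passed in 1 of the 6 fits that left out a WT pool. St8sia2 and Sdc1 were picked for the plot beside Ncam1 and Sdc4 after their values were seen.

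**Figure D3:**
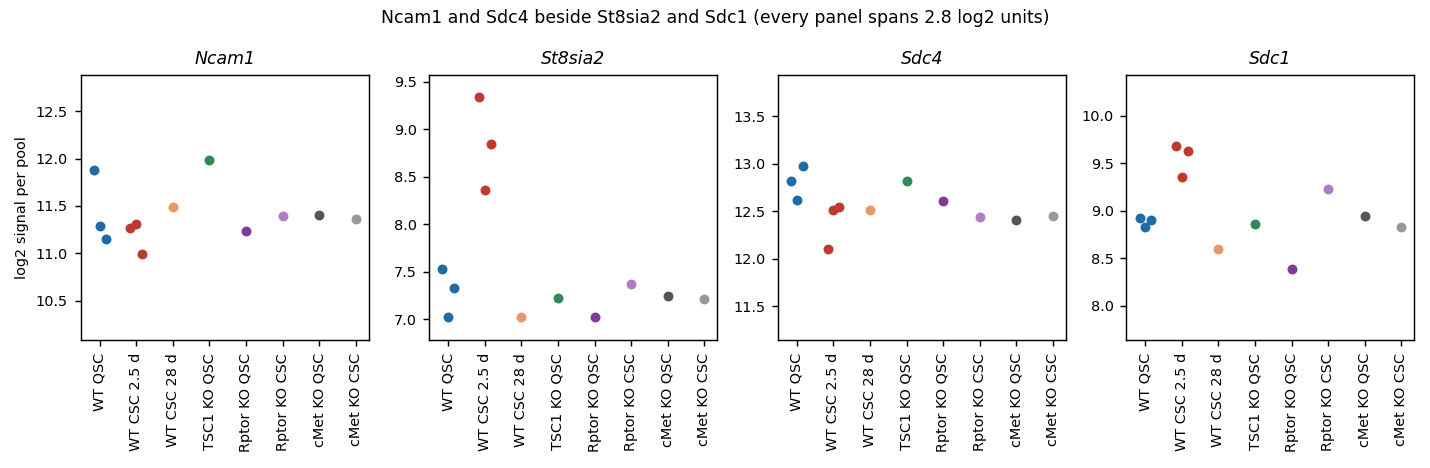
Signal (log2, y axis) per pool by group for Ncam1 beside the polysialyltransferase St8sia2 and for Sdc4 beside Sdc1, each panel spanning the same range. The 3 WT CSC pools at 2.5 days read 8.36 to 9.34 for St8sia2, above the other 9 pools, while Ncam1 in those pools read 10.99 to 11.31.

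Of 28 other quiescence and identity genes tested, 12 fell and 1 rose (median -0.53). These were 42.9% and 3.57% of the list, beside 7.36% and 10.6% of all genes. Tek, the angiopoietin receptor, fell by 1.15 ± 0.15 (limma adjusted p = 0.00135). Pax7, the transcription factor that defines the lineage, fell by 1.07 ± 0.25 (limma adjusted p = 0.0183; lost without WT CSC pool 2 or 3, adjusted p up to 0.0741). Met, the receptor of hepatocyte growth factor, rose by 0.79 ± 0.13 (limma adjusted p = 0.00499). Of these 13 genes only Tek and Met passed without any 1 WT pool. Cdh15, encoding the adhesion protein M-cadherin, differed by -0.14 ± 0.16 (limma adjusted p = 0.602). Of 13 tested activation and cell cycle genes 6 rose and none fell (46.2% of the list, beside 10.6% of all genes that rose). The 6 were cell cycle genes: Cdk1 (2.17 ± 0.16, limma adjusted p = 0.000133), Ccna2 (2.05 ± 0.13, limma adjusted p = 9.94e-05), Mki67, Top2a, Mcm5 and Mcm6. The myogenic factors Myod1 (0.31 ± 0.24) and Myog (0.44 ± 0.44) did not pass (limma adjusted p = 0.412 and 0.540). Neither did Mymk (0.97 ± 0.39, limma adjusted p = 0.121), Myf6, Des, Ccnd1 or Pcna.

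Markers of other cell types moved with the same comparison, in which 7.36% of all genes fell and 10.6% rose. Of 14 endothelial markers 9 fell (64.3%, median -1.04). Their mean log2 signal was 8.57 to 9.30 in the WT QSC pools and 7.69 to 8.09 in the WT CSC pools. Of 10 fibro-adipogenic markers 5 fell (50%) and of 10 pericyte and smooth muscle markers 7 fell (70%), with none rising. Of 13 tested macrophage and leukocyte markers none passed, and of 11 tested fibre markers 4 rose (36.4%). Of 6 tested Schwann and glial markers 2 rose and 2 fell (33.3% each). No endothelial, fibro-adipogenic or pericyte marker in these lists lay under the brightness filter. All 15 tested dissociation and immediate early genes fell (median -1.02), with means of 12.04 to 12.54 in QSC and 11.15 to 11.18 in CSC. Without any 1 WT pool, 6 of the 9 endothelial and 13 of the 15 dissociation genes still passed. Cd34, Vcam1 and Tek are also made by endothelial cells. The part of these other cells and of the dissociation response in the changes of Chodl, Calcr, Cd34 and Tek was not tested.

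**Figure D4:**
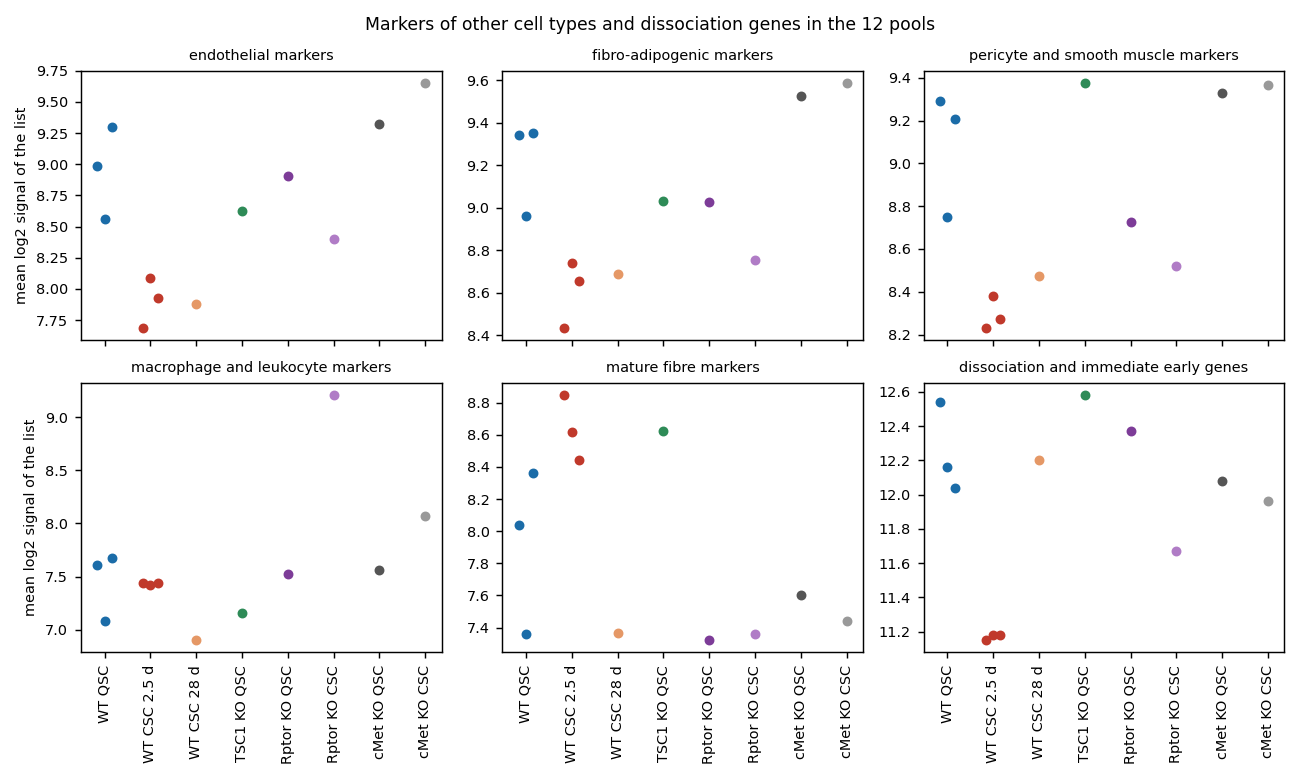
Mean log2 signal (y axis) of 6 lists of marker genes in each pool by group. Endothelial markers were 7.69 to 8.09 in WT CSC and 9.65 in cMet KO CSC, and macrophage markers were 9.21 in Rptor KO CSC against 8.07 or less in the other pools.

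In the WT pool taken 28 days after injury the surface genes lay near the noninjured level. None of the 10 passed against WT QSC, nor did any of the 13956 genes (0%). An unadjusted limma p under 0.05 was seen for 637 of them, a share below the 0.05 expected when nothing differs. Chodl read 11.91, Calcr 11.69 and Cd34 11.55, each inside the span of the 3 QSC pools. In all, 8 of 10 members lay inside that span, as did 61.2% of all genes, and Sdc4 (12.51) and Itga7 (10.37) lay below it, as did 19% of all genes. The comparison with WT CSC at 2.5 days reuses the pools in which Chodl, Calcr and Cd34 were called lower, so it is not separate evidence. In it 1 of the 10 was higher and none lower, beside 2.06% and 6.32% of all genes. The gene was Chodl, at 1.35 ± 0.24 (2.54-fold, limma adjusted p = 0.0127; 0.0445 or less under 14 alternatives). Calcr differed by 1.15 ± 0.32 and Itga7 by -1.05 ± 0.28, and both missed the threshold (limma adjusted p = 0.0604 and 0.0533). Cd34 (0.58 ± 0.32), Vcam1 (0.43 ± 0.20) and Sdc3 (-0.62 ± 0.33) did not pass either (limma adjusted p = 0.319, 0.218 and 0.300).

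Of 12 tested direct partners, 2 passed between 28 and 2.5 days, and the other 10, among them Cxcl12, Ramp2 and Itga4, did not. The 2 had been called higher in the same WT CSC pools. St8sia2 read 7.03 and fell by 1.82 ± 0.34 from WT CSC on the log2 scale (limma adjusted p = 0.0147). Sdc1 read 8.60 and fell by 0.96 ± 0.19 (limma adjusted p = 0.0184; 0.0707 without WT CSC pool 3). Endothelial markers in this pool had a mean of 7.88, within the WT CSC range, while the dissociation genes had a mean of 12.2, within the WT QSC range. The part of either in the marker levels of this pool was not tested.

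In noninjured mice no surface gene passed against WT QSC in any knockout, and the 3 knockout comparisons share the WT QSC pools. In the TSC1 KO pool 6 of 10 genes lay above all 3 WT QSC pools and none lay below, where 30.3% and 23.2% of all genes did so. None passed, and 0.0143% of all genes did. Cd34 read 12.59 against 11.33 to 12.09 in WT QSC, a difference of 0.79 ± 0.32 (limma adjusted p = 0.552). Ncam1 read 11.98, just above the highest WT QSC pool at 11.88 (0.53 ± 0.28, limma adjusted p = 0.604). Chodl (12.11), Vcam1 (12.65), Itga7 (11.33) and Cxcr4 (10.39) were the others above the WT QSC pools. For Ncam1 and Cxcr4 the gap to the highest WT QSC pool was smaller than the difference between the arrays of the TSC1 KO pool. Those arrays read 11.89 and 12.06 for Ncam1 and 10.32 and 10.47 for Cxcr4. These positions are no test. Calcr at 11.66 lay inside the WT QSC span.

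In the Rptor KO QSC pool 7 of 10 genes lay below all 3 WT QSC pools and 1 lay above, where 26.5% and 24.9% of all genes did so. For Sdc4 (12.61) and Cxcr4 (10.02) the gap to the lowest WT QSC pool (12.62 and 10.03) was smaller than the difference between the arrays of that Rptor KO pool. The same held for Chodl, with arrays at 11.58 and 11.3 and the lowest WT QSC pool at 11.52. It also held for Calcr, with arrays at 11.1 and 10.95 and the lowest WT QSC pool at 11.14. None of these positions is a test. No member passed, with 0.122% of all genes called. Cd34 read 10.66, a difference of -1.15 ± 0.32 (limma adjusted p = 0.239; 0.0203 in a fit of all arrays in which pool was a random effect). The latter fit takes technical arrays as added observations, so its smaller p-value does not rest on more pools. Itgb1 read 10.69, the lowest value of any pool, and differed by -0.64 ± 0.23 (limma adjusted p = 0.319). Itga7 read 10.31 and Calcr 11.03, with differences of -0.62 ± 0.28 and -0.68 ± 0.32 (limma adjusted p = 0.456 and 0.474). Chodl read 11.44 (-0.41 ± 0.24, limma adjusted p = 0.587). Vcam1 at 12.56 was the member above the WT QSC pools, the highest of which read 12.53. The arrays of that Rptor KO pool read 12.53 and 12.58 for Vcam1.

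Set against each other, the TSC1 KO and Rptor KO QSC pools differed most in Cd34, which was 3.82-fold higher in the TSC1 KO pool (1.93 ± 0.40). With 1 pool on each side this just missed the threshold (limma adjusted p = 0.0533), and it passed under 9 of 14 alternatives. Between these pools 1.55% of all genes passed. Centring the arrays moved the median of all genes by 0.115 in this comparison, and Cd34 was at least 1.83 higher under every alternative run. Itga7 was 1.01 ± 0.35 higher and Ncam1 0.74 ± 0.34 higher in the TSC1 KO pool, and neither passed (limma adjusted p = 0.162 and 0.282). Chodl (0.67 ± 0.30), Calcr (0.63 ± 0.39) and Itgb1 (0.56 ± 0.28) did not pass either (limma adjusted p = 0.264, 0.415 and 0.309). The means of the endothelial markers were 8.63 in the TSC1 KO pool and 8.91 in the Rptor KO QSC pool. The mean of the fibre markers was 8.62 and 7.32, and that of the pericyte markers 9.38 and 8.73. The part of endothelial, fibre and pericyte RNA in these differences was not tested.

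The cMet KO QSC pool lay close to WT QSC for the surface genes. None of the 10 passed, nor did any gene (0%). The 185 genes at an unadjusted limma p under 0.05 were a share below 0.05 of all genes tested. Chodl read 11.69, Calcr 11.62 and Cd34 11.94, all inside the WT QSC span. The 2 members outside it were Cxcr4, above at 10.62 (0.47 ± 0.24, limma adjusted p = 1.0), and Sdc4, below at 12.41. Above and below the WT QSC pools lay 20.3% and 8.54% of all genes.

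The response to the distant injury was then taken within the Rptor and cMet knockouts, with 1 pool per state. In the Rptor KO, Chodl read 11.44 in QSC and 10.83 in CSC, a difference of -0.61 ± 0.30. Calcr read 11.03 and 10.58 (-0.45 ± 0.39), and Cd34 read 10.66 and 10.78 (0.12 ± 0.40). None of the 10 passed (limma adjusted p = 0.999), beside 0.258% of all genes. The 2 technical arrays of the Rptor KO CSC pool differed by 0.44 for Chodl and 0.37 for Cd34, the widest array differences for these genes in any pool.

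In the cMet KO, Chodl read 11.69 in QSC and 11.62 in CSC (-0.07 ± 0.30), and Cd34 read 11.94 and 11.89 (-0.05 ± 0.40). Calcr read 11.62 and 11.17, a difference of -0.45 ± 0.39. No gene passed in this comparison (0%), with 75 at an unadjusted limma p under 0.05, a share below 0.05. The 95% intervals for Chodl ran from -0.74 to 0.60 in the cMet KO and from -1.28 to 0.06 in the Rptor KO, against -1.67 to -0.90 in WT.

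The differences between responses were tested directly. The Chodl response was 1.21 ± 0.34 less negative in the cMet KO than in WT (limma adjusted p = 0.245; 0.0491 with pool as a random effect). The fit with pool as a random effect takes technical arrays as added observations, so its smaller p-value does not rest on more pools. The Itga7 difference was -0.90 ± 0.40 (limma adjusted p = 0.527). In the Rptor KO the response differences were 0.96 ± 0.46 for Cd34, 0.72 ± 0.45 for Calcr and 0.67 ± 0.34 for Chodl (limma adjusted p = 0.9996 for each). No member passed in either, and of all genes 0.158% passed for cMet and 0% for Rptor. For Rptor 620 genes had an unadjusted limma p under 0.05, a share below 0.05. Both differences share the WT pools, and no member's response was shown to differ between genotypes.

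**Figure D5:**
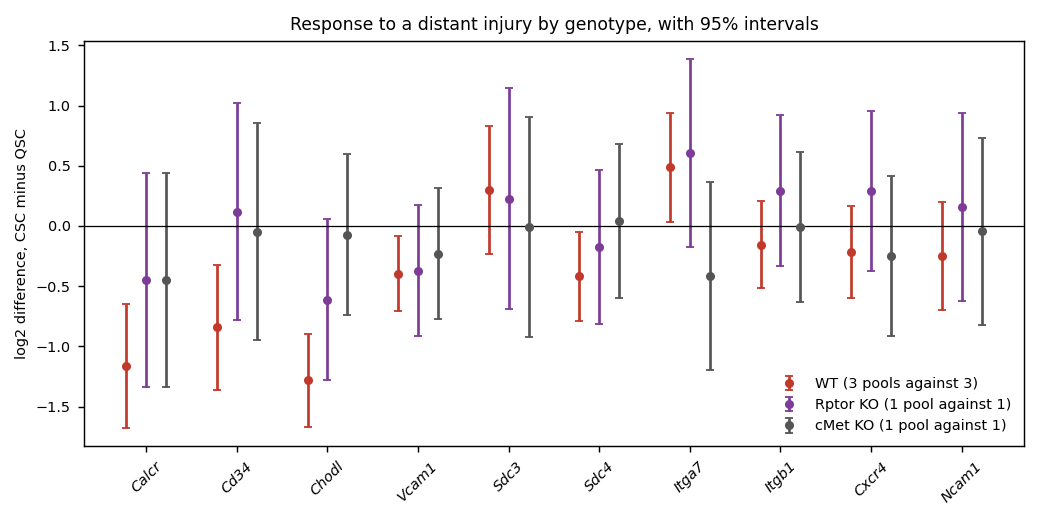
Difference between CSC at 2.5 days and QSC (log2, y axis) for each gene in WT, Rptor KO and cMet KO, with 95% intervals from limma. The WT intervals for Calcr, Cd34, Chodl, Vcam1 and Sdc4 lie below 0 and that for Itga7 above, of which Calcr, Cd34 and Chodl passed the adjusted threshold, and the knockout intervals, from 1 pool per state, all include 0.

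Compared at the same state, cMet KO CSC and WT CSC differed in Chodl, which was 1.06 ± 0.24 higher in the cMet KO pool (2.08-fold, limma adjusted p = 0.0365). This made 1 of 10 members higher and none lower, beside 3.40% and 3.35% of all genes. The comparison reuses the WT CSC pools in which Chodl was called lower than in WT QSC. The call was lost without WT CSC pool 1, 2 or 3 (adjusted p = 0.0924, 0.107 and 0.0713), with centred arrays (0.0557) and with no filter on dim genes (0.0502). Cd34 differed by 0.93 ± 0.32, Calcr by 0.63 ± 0.32 and Itga7 by -0.80 ± 0.28, and none of them passed (limma adjusted p = 0.124, 0.280 and 0.126). Of the 14 endothelial markers 11 were higher in the same comparison, with a mean of 9.65 in cMet KO CSC. Also higher were 5 of 10 fibro-adipogenic, 3 of 10 pericyte, 3 of 13 macrophage and 3 of 15 dissociation genes, and none of these lists had a lower gene. Their part in the Chodl and Cd34 levels was not tested. The dissociation genes had a mean of 11.96 in this pool and 11.67 in Rptor KO CSC.

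No member passed between Rptor KO CSC and WT CSC, beside 3.90% of all genes called. In that pool 4 members lay above all 3 WT CSC pools and 1 lay below, where 34.5% and 38.3% of all genes did so. The 4 were Chodl (10.83, highest WT CSC pool 10.77), Sdc3 (9.27), Cxcr4 (10.32) and Ncam1 (11.39). For Chodl, Sdc3 and Ncam1 the gap to the highest WT CSC pool was smaller than the difference between the arrays of this Rptor KO pool. Those arrays read 11.05 and 10.61 for Chodl, 9.17 and 9.36 for Sdc3, and 11.31 and 11.47 for Ncam1. These positions are no test. Itga7 at 10.92 lay below the lowest WT CSC pool at 11.20, and the other 5 lay inside the WT CSC span. Macrophage markers had a mean of 9.21 in this pool, and 10 of 13 were higher than in WT CSC. For St8sia2, the polysialyltransferase, the response to injury differed from that of WT by -1.58 ± 0.48 in the cMet KO. In the Rptor KO it differed by -1.20 ± 0.48, and neither difference passed. St8sia2 was lower than WT CSC in the CSC pools of both knockouts. Both comparisons reuse the WT CSC pools in which it was seen to be high, so they are not separate evidence. The difference was -1.63 ± 0.34 in cMet KO CSC (limma adjusted p = 0.0276; 0.0786 without WT CSC pool 3) and -1.48 ± 0.34 in Rptor KO CSC (limma adjusted p = 0.0499; up to 0.137 in the 8 of 14 alternatives where it was lost).

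Across the 8 groups, TSC1 KO QSC had the highest level of 5 members (Cd34, Chodl, Vcam1, Sdc4 and Ncam1). WT CSC had the lowest level of 6 (Calcr, Chodl, Vcam1, Sdc4, Cxcr4 and Ncam1), and Rptor KO QSC had the lowest of Cd34, Itga7 and Itgb1. Neighbouring groups in these orders lay close together: of 70 neighbouring pairs, 1 differed by more than 2 SE. That pair, Chodl in Rptor KO QSC over Rptor KO CSC, had 1 pool on each side and did not pass the test given above. The span between the highest and lowest pool was widest for Cd34 (1.98), Calcr (1.67) and Chodl (1.66), and narrowest for Itgb1 (0.72).

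As a description over the 12 pools, which include the WT pools used above, Calcr and Chodl followed each other most closely (Pearson r = 0.947). Cd34 correlated with Chodl at 0.809 and with Calcr at 0.803, and Vcam1 with Chodl at 0.837. The gene most like each member differed from one to the next. Calcr was most like Acss3 (r = 0.973), Cd34 like Tmem64 (0.978), Chodl like Aldh6a1 (0.980) and Vcam1 like H2-K2 (0.972). For the integrin chains the nearest genes were Nkapd1 for Itgb1 (0.959) and Cndp2 for Itga7 (0.938). Washc2 was nearest to Ncam1 (0.946), Rnf10 to Sdc3 (0.943) and Nfkbia to Sdc4 (0.929). Cxcr4 had the loosest nearest neighbour, Myadm (0.899). These values share pools and arrays and carry no test.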

How the data were processed

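Gene expression was measured on 21 Affymetrix Mouse Gene 1.0 ST arrays. The deposited values are log2 signals that, as the submitters' processing notes state, the authors made with RMA in Affymetrix Expression Console. Its version and which arrays it normalized together were not given in the sources used here. Of 35556 probesets, 21789 had 1 gene symbol in the platform table, 1621 had several and 12146 were not listed. They gave 19938 genes, each by its brightest probeset. Arrays of a pool were averaged (9 pools had 2 arrays, 3 had 1), so that the pool was the unit. Genes under the 30th percentile of mean log2 (6.45) were left out, and 13956 were tested with limma 3.58.1 (lmFit, eBayes; R 4.3.3), with a mean for each of 8 groups, 13 contrasts and Benjamini-Hochberg adjustment over all genes. The 4 residual degrees of freedom came from WT QSC and WT CSC (prior 5.01, total 9.01). The number of arrays limits the precision. The titles number WT QSC and WT CSC pools at 2.5 days as biological replicates, while those of the other groups number only technical arrays. Whether replicate pools came from different mice is not stated beyond that, so p-values measure the spread between these pools.

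The members and lists were chosen with earlier results of these data known. Named genes are the members, up to 5 genes per list with the smallest p past the threshold in WT CSC against WT QSC, the direct partners, the targeted and identity genes, and the genes most like each member. A few others past the threshold are named to complete a count. For the activation and cell cycle list the genes that did not pass are named too. Differences between groups are printed for every member in WT, and elsewhere for members taken from Calcr, Cd34, Chodl and those with an unadjusted p under 0.1; other members are given by pool values or counts. Promoters were found for 7 of the 10 members. The alternatives were quantile normalization again, arrays centred on their medians, no filter on dim genes, a filter at the 50th percentile, a mean over a gene's probesets, trend and robust eBayes, a fit of all arrays with pool as a random effect, only first arrays, the 6 WT pools alone, the replicate number as a block and leaving out each WT pool.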

Additional observations from a re-analysis of the deposited data

How the results depend on the processing

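The 846 values of the members came from 16 alternatives in WT CSC against WT QSC and 14 in each other comparison. Of these, 791 kept their direction and their side of the threshold, 13 changed sign, 11 were lost and 31 were gained. Values that did not pass in the main setting made up most of the 846, so the 791 says little about the calls. The 11 lost were 6 for Cd34 in WT CSC against WT QSC and 5 for Chodl in cMet KO CSC against WT CSC. Chodl and Calcr kept their calls in WT CSC against WT QSC under all 16. The fit of all arrays takes technical arrays of a pool as added observations, so its counts do not rest on more pools. In a fit of all arrays with pool as a random effect, the members past the threshold were 6 in WT CSC against WT QSC (3 in the main setting, 2 with no filter on dim genes and 2 to 3 without 1 WT pool), 4 in WT CSC at 28 days against WT CSC, 1 in Rptor KO QSC against WT QSC, 3 in cMet KO CSC against WT CSC, 1 for the cMet KO response against that of WT and 2 for TSC1 KO against Rptor KO QSC. For 28 days against WT CSC (1 member in the main setting) the count was 3 after quantile normalization and with the 50th percentile filter, 2 with trend and robust options and with first arrays, and 1 to 3 without 1 WT pool. For cMet KO CSC against WT CSC (1) it was 0 with centred arrays and with no filter, and 0 to 2 without 1 WT pool. For TSC1 KO against Rptor KO QSC (0) it was 1 after quantile normalization, centring, the 50th percentile filter, trend and robust options and first arrays, and 0 to 1 without 1 WT pool.

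The differences that changed sign were all small. The values left after dropping 1 WT pool ran from -0.24 to 0.0020 for Itgb1 in WT CSC against WT QSC. Calcr against WT QSC turned at 28 days to 0.029 (quantile normalization), 0.17 and 0.084 (without WT QSC 1 and 2; -0.30 without 3), in the TSC1 KO to 0.051 (centred), 0.14 and 0.052 (-0.33 without 3), and in the cMet KO to 0.10 and 0.017 (-0.36 without 3). Without WT QSC 3 Chodl at 28 days was -0.098 and Cd34 in the cMet KO was -0.11, with 0.15 and 0.27 at the other end of the range. Calcr in Rptor KO CSC against WT CSC was -0.022 (centred) and -0.027 (without WT CSC 2; 0.085 without 3). The cause was not tested.

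By count, 1483 of all genes were higher and 1027 lower in WT CSC against WT QSC. Without WT CSC 1, 2 or 3 these were 867, 890 or 846 higher and 429, 399 or 348 lower, with fewer samples in the fit. Lower genes numbered 631 without WT QSC 1 and 1641 with pool as a random effect. Same-numbered WT QSC and CSC pools deviated together for number 1 (r = 0.319) and not for 2 or 3 (-0.033 and -0.034). A pair of unlike number, QSC 2 with CSC 3, reached 0.317. These values gave no clear sign of pairing by number and, from so few pools, cannot exclude it. With the replicate number as a block, 3 members passed, with 1624 genes higher and 1172 lower.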
